A study of Mus musculus with 2 samples.

Results

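Among cultured mouse hematopoietic stem cells, 892 of 7562 kept cells carried high counts of Ly6a, Procr and Ltb, 561 of 4608 in a DMSO library and 331 of 2954 in an RO-3066 library. The cells were chosen by these measured values: unique molecular identifiers (UMIs) of the 3 genes, summed, had to reach 150 CPM, a count scaled so that every cell's UMIs sum to the same total. Kept cells had at least 10000 UMIs, at least 500 genes, at most 10% mitochondrial UMIs and less than 0.3% of UMIs from Pf4, a platelet chemokine gene. The cells that met the rule are called high cells below, and all other kept cells are the cells they were set against. Since the 3 genes and Pf4 were used for the choice, their values are a description, and the contrast of high with other cells is given without a test on any gene.

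Both libraries hold mouse cells labelled hematopoietic stem cells from blood. They were cultured in suspension for 48 h, 1 library in RO-3066 and 1 in the vehicle DMSO. The labels give no dose, target, strain, age or sorting gate, and no second library of either treatment, so a difference between the treatments has no replicate check. The series title names DNA damage and megakaryopoiesis, the formation of platelet-producing cells. Single-cell 3' RNA libraries gave 188022321 UMIs in 6160 DMSO barcodes and 171821236 UMIs in 3882 RO-3066 barcodes. The libraries shared 7 barcode sequences, 3 of them kept in both, and no barcode was a high cell in both.

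Ly6a encodes Sca-1, a membrane-anchored surface protein by which mouse stem and early progenitor cells are sorted, and its transcription is induced by interferons. Procr encodes the endothelial protein C receptor, EPCR, which marks stem cells with long-term repopulating capacity in mouse bone marrow. Ltb encodes lymphotoxin beta, a membrane-bound ligand of the TNF family that signals through the lymphotoxin beta receptor to NF-kB. Hematopoietic stem cells are quiescent in the marrow and enter the cell cycle in culture, and as they differentiate they lose Sca-1 and EPCR and gain surface proteins such as CD48 or the platelet integrin CD41.

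The genes lie apart in the genome (GENCODE vM21, GRCm38): Ly6a at chr15:74994877-74998031 on the minus strand, Procr at chr2:155751117-155755471 and Ltb at chr17:35194439-35196320, both on the plus strand. The promoter windows of Procr and Ltb are shown because these genes define the cells, and those of Ddx58 and Trim30a because interferon response genes were higher in the high cells, as described further on. Sequences are from RefSeq (GRCm38.p6), 250 bases before to 50 bases after the RefSeq start of the gene, 5′ to 3′. For Procr and Ltb that start differs from the GENCODE start given above. Capitals mark an NF-kB-like pattern in the first pair (GGG, any 5 bases, CC) and an interferon-response-like pattern in the second pair (GAAA, any 2 bases, GAAA), on either strand.
Procr: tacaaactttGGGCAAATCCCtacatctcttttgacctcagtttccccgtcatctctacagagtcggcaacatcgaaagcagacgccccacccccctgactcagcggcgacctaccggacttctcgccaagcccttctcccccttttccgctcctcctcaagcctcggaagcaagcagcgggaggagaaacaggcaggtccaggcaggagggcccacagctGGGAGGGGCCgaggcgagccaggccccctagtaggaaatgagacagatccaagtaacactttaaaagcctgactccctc
Ltb: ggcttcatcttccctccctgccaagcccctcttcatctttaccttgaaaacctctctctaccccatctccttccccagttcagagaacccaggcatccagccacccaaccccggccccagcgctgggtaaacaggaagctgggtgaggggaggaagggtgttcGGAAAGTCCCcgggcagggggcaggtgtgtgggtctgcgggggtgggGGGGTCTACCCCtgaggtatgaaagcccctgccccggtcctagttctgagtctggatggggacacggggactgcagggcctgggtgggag
Ddx58: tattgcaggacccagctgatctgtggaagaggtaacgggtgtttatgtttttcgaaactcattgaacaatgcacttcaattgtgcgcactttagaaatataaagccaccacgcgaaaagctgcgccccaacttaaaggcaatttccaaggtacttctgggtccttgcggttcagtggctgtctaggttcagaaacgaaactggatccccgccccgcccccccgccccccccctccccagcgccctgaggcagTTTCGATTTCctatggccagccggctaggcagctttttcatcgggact
Trim30a: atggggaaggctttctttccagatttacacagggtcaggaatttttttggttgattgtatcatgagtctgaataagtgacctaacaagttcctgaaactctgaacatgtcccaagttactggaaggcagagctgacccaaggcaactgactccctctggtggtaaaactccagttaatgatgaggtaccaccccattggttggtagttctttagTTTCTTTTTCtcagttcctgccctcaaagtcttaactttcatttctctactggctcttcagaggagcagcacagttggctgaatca
The windows are chr2:155750967-155751266 (plus strand), chr17:35194257-35194556 (plus), chr4:40239776-40240075 (minus) and the first of 2 windows of Trim30a, chr7:104465144-104465443 (minus). The NF-kB-like pattern, at 3 places in Procr and 4 in Ltb that partly overlap, occurs in 50.8% of all 32851 promoter windows. It occurs in 67.0% of 5679 windows of the genes compared below, 65.6% of windows of genes higher in the high cells and 71.0% of those lower. The interferon-response-like pattern occurs in 3.44% of all windows and 3.12% of windows of the genes compared. Among windows of the 16 interferon response genes compared, of which 13 had windows, 7 of 20 held it. Ddx58 and Trim30a are 2 of the 5 such genes past 1.5-fold higher in both libraries, and their windows held it. No window of Irf1 or Irf9 held it, and only 1 of 2 windows of Ifi203 did. Of windows of genes higher in the high cells, 8% held it (10 of 125, for 90 of 105 genes), and of windows of genes lower in them 12.9% (4 of 31, for 26 of 35 genes). Such matches describe the letters and show no binding.

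High cells were 12.2% of the kept DMSO cells (exact Clopper-Pearson 95% interval 11.2 to 13.2) and 11.2% of the kept RO-3066 cells (10.1 to 12.4). The intervals cover counting error only and they overlap. After every cell was thinned to 10000 UMIs, where 2 UMIs of the 3 genes reach the limit, the shares were 14.2% (13.2 to 15.3) and 13.8% (12.6 to 15.1). Of the high cells, 454 of 561 and 254 of 331 reached the limit again on thinned counts. Cells with Pf4 at or above the limit, 1442 and 720 in number, were outside the kept cells. They reached the limit on the 3 genes in 7 DMSO cells (0.485%) and 0 of 720 RO-3066 cells.

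Most high cells had a Ly6a UMI. Ly6a gave the most UMIs of the 3 genes, ties not counted, in 376 of 561 DMSO and 163 of 331 RO-3066 high cells. In DMSO 92.3% of them had a Ly6a UMI, 44.9% a Procr UMI and 62.0% an Ltb UMI, and in RO-3066 88.2%, 49.5% and 76.4%. Ly6a gave 66.3% of the high cells' UMIs of the 3 genes in DMSO and 52.2% in RO-3066, and Ltb gave 20.7% and 33.5%. A high cell had a median of 5 such UMIs in each library, at most 60 in DMSO and 25 in RO-3066, while 28 and 21 high cells rested on 2 UMIs. All 3 genes were seen in 117 DMSO and 105 RO-3066 high cells, 2 of them in 323 and 168, and 1 in 121 and 58.

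Ly6a stood at 193 CPM of summed UMIs in DMSO high cells and 15.9 in other cells, and at 134 and 12.7 in RO-3066. Procr stood at 38.0 and 4.12 in DMSO and at 36.5 and 3.74 in RO-3066, and Ltb at 60.5 and 9.22 and at 85.9 and 16.2. These gaps follow from the choice. A view free of that comes from leaving each gene out of the choice in turn. Cells chosen on Procr and Ltb alone, 156 and 118 cells, had 5.18-fold (exact conditional Poisson interval 4.64 to 5.76) and 4.88-fold (4.18 to 5.66) the Ly6a CPM of the rest. Cells chosen without Procr had 5.39-fold and 5.67-fold its CPM, and cells chosen without Ltb 3.26-fold and 3.21-fold its CPM. With the other cells weighted to the same distribution over 10 bins of UMIs per cell, these folds were 2.67 and 2.08 for Ly6a, 3.39 and 2.83 for Procr, and 1.80 and 1.77 for Ltb. The 3 genes thus stood together in the same cells at matched depth, by less than without matching.

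High cells had fewer UMIs than other kept cells, with medians of 17598 against 23547 in DMSO and 18601 against 33249 in RO-3066. They also had fewer genes per cell, 4199 against 4742 and 4396 against 5605, and alike shares of mitochondrial UMIs, 1.48% against 1.5001% and 1.80% against 1.71%. Between 10000 and 15000 UMIs 46.2% of DMSO and 43.9% of RO-3066 cells were high cells, and from 40000 UMIs 2.42% and 1.59%. On thinned counts the same bins gave 48.6% and 40.4%, then 4.84% and 4.34%. Whether the smaller RNA content belongs to the cells or to their capture was not tested. Likely doublets, called by their likeness to sums of 2 cells and left in, were 14 of 561 and 9 of 331 high cells (2.50% and 2.72%) against 5.36% and 3.09% of other cells.

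**Figure D1:**
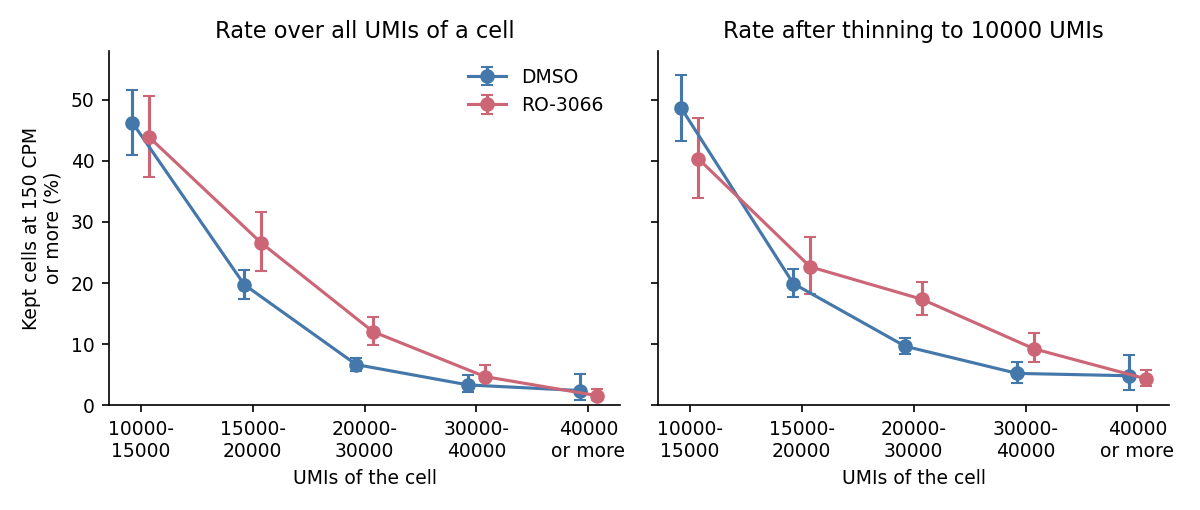
Share of kept cells at 150 CPM or more of Ly6a, Procr and Ltb (y axis, %) by UMIs of the cell (x axis), on all UMIs of a cell (left) and after thinning to 10000 UMIs (right). Points are the 2 libraries and bars exact Clopper-Pearson 95% intervals; the share is highest in the shallowest cells, 46.2% and 43.9% at left, and lowest from 40000 UMIs, 2.42% and 1.59%.

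High cells were compared with other cells in each library, and the 2 libraries were set side by side. The 12 highest and 12 lowest genes named below were picked to have the same direction in both. Of 5553 genes compared, those with at least 20 CPM in high or other cells of each library apart from the 3 chosen on, 105 were at least 1.5-fold higher in high cells in both libraries (1.89%). Another 35 (0.63%) were at least 1.5-fold lower in both. No gene passed this fold in opposite directions, and 77.6% of genes compared had the same direction in both libraries. Singly, 156 genes were higher and 43 lower in DMSO, 150 and 65 in RO-3066. With the other cells weighted to the high cells' UMI bins, 41 genes were higher and 11 lower, 36 and 11 of them among the 105 and 35, and all 105 and 35 kept their direction. With no limit on Pf4, 235 were higher and 155 lower, so 60.3% of genes past the fold were higher, against 75% with it.

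Lgals1, which encodes galectin-1, stood at 99.3 CPM in DMSO high cells and 24.5 in other cells, and at 81.4 and 20.5 in RO-3066. That was 4.05-fold (3.77 to 4.36) and 3.96-fold (3.60 to 4.35), and at matched UMI bins the log2 ratios were 1.33 and 1.42. Chst2, a sulfotransferase gene, was 3.26-fold (2.84 to 3.73) and 5.25-fold (4.41 to 6.23) higher, with 27.4 against 8.42 CPM in DMSO and 26.2 against 4.99 in RO-3066. Gstm1, a glutathione transferase gene, stood at 40.7 against 13.3 CPM and 50.9 against 15.8. Tnip3, whose product restrains NF-kB signalling, stood at 41.1 against 10.7 CPM and 47.9 against 18.1. The others among the 12 highest were Hbb-bt, Ypel3, Hlf, St8sia4, Nkx2-3, Syne2, Socs2 and Retreg1, between 2.11-fold and 3.93-fold. S100a4, an abundant calcium-binding protein gene named here after its values were seen, stood at 1844 against 1065 CPM and 1773 against 1033.

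Fgf3, a fibroblast growth factor gene, was the furthest below 1, at 9.81 CPM in DMSO high cells against 57.8 in other cells and 5.58 against 35.5 in RO-3066. Its ratios were 0.170 (0.138 to 0.206) and 0.157 (0.111 to 0.215). Cd48, the gene of a surface protein used to exclude progenitors from stem cell gates, stood at 15.05 against 71.1 CPM in DMSO and 6.58 against 24.2 in RO-3066, ratios of 0.212 (0.180 to 0.248) and 0.271 (0.198 to 0.363). Cdk6, the gene of a kinase that drives exit from quiescence, stood at 58.6 against 142 CPM and 69.4 against 165. Runx3, a transcription factor gene, stood at 104 against 190 CPM and 62.5 against 141. Nkg7, Tuba8, Plek, Slc22a3, Tespa1 and Rabgap1l were also among the 12 lowest, as were Itga2b and Pf4. At matched UMI bins all 12 kept their direction in both libraries, with log2 ratios between -2.17 and -0.56.

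**Figure D2:**
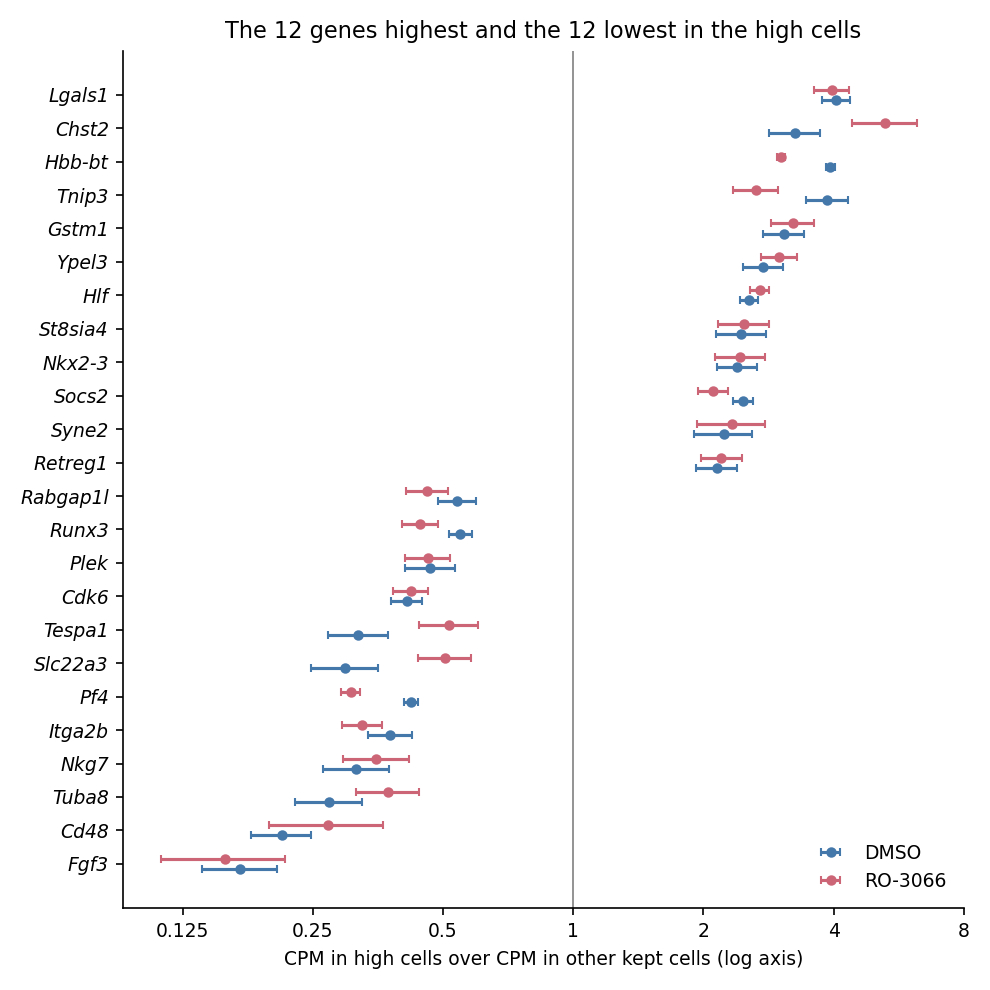
CPM in high cells over CPM in other kept cells (x axis, log scale) for the 12 highest and 12 lowest genes by the smaller of the 2 libraries' ratios. Points are the libraries and bars exact conditional Poisson 95% intervals. The genes were picked to lie on the same side of 1 in both libraries. Their ratios run from 0.157 for Fgf3 to 5.25 for Chst2, and Pf4 was part of the choice of cells.

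Of 28 stem cell genes compared, 7 were higher and 1 lower in both libraries, beside 1.89% and 0.63% of all genes compared. The list's median log2 ratio was 0.46 in DMSO and 0.39 in RO-3066 beside -0.00 and 0.01 over all genes compared. Hlf, a transcription factor gene of stem cells, stood at 207 against 81.2 CPM in DMSO and 260 against 96.2 in RO-3066, 2.55-fold (2.44 to 2.68) and 2.70-fold (2.57 to 2.84). Mecom, the gene of the stem cell factor Evi1, was 1.87-fold (1.78 to 1.97) and 2.34-fold (2.21 to 2.47) higher, and Mllt3, a gene tied to stem cell maintenance, 1.72-fold and 1.80-fold. Hacd4, Gimap6, Pdzk1ip1 and Trim47 completed the 7. At matched UMI bins the log2 ratios were 0.93 and 0.57 for Hlf and 0.78 and 0.71 for Mecom.

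The stem cell list did not move as one. Gata2 stood at 65.2 against 115 CPM in DMSO, a ratio of 0.565, and at 102 against 135 in RO-3066, a ratio of 0.761. Slamf1, which encodes the stem cell marker CD150, was at 11.2 against 15.5 CPM and 11.02 against 14.98, below the 20 CPM required, and with log2 ratios of -0.12 and 0.37 at matched UMI bins. Meis1 stood at 107 against 114 CPM and 159 against 146. The ratios of high to other cells were 1.12 and 1.16 for Kit, the stem cell factor receptor gene, whose direction turned under some alternatives. They were 1.41 and 1.49 for Hoxa9, and 1.75 and 1.35 for the surface protein gene Esam. At matched UMI bins the log2 ratios were 0.39 and 0.03 for Hoxa9 and 0.44 and 0.34 for Esam. The label stem-like thus rests on Hlf, Mecom, Mllt3 and low Cd48, while Slamf1, Meis1 and Gata2 did not pass 1.5-fold higher in either library. Low Cd48 was shared with cells high in Pf4. On thinned cells, 9.98% of DMSO and 3.32% of RO-3066 high cells had a Cd48 UMI. Cells high in Pf4 had such a UMI in 18.2% and 3.33%, and other kept cells in 38.2% and 15.1%.

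Of 14 genes of multipotent and lymphoid-primed progenitors compared, 2 were higher and 3 lower in both libraries, beside 1.89% and 0.63% of all genes. Lsp1, a leukocyte actin-binding protein gene, stood at 110 against 35.2 CPM and 113 against 57.7, and Gimap5 was 2.002-fold and 2.22-fold higher. Cd48, Cdk6 and Plac8 were the 3 lower. Cd34 stood at 84.4 against 98.8 CPM and 68.0 against 72.3, and Cd27 was 1.40-fold and 1.52-fold higher. Flt3, the receptor gene of lymphoid-primed progenitors, stood at 8.38 against 4.44 CPM and 5.58 against 3.12.

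Interferon response genes were higher together. Of 16 compared, 15 were higher than 1 in both libraries and 5 past 1.5-fold in both. Of all 5553 genes compared, 2217 were higher than 1 in both and 105 past 1.5-fold in both. The medians of the 16 were 0.70 and 0.54 on the log2 scale beside -0.00 and 0.01 over all genes. Ddx58, the gene of the RNA sensor RIG-I, stood at 25.3 against 12.2 CPM and 26.9 against 14.7. Irf9, a subunit of the interferon-activated factor ISGF3, was 1.86-fold (1.60 to 2.16) and 1.98-fold (1.68 to 2.31) higher. Irf1, Trim30a and Ifi203 were the other 3, and at matched UMI bins all 5 had log2 ratios between 0.41 and 0.85. Of these 5 only Irf9, at 0.65 and 0.62, was then past 1.5-fold in both libraries. Ifi203 was below 1.5-fold in both, Ddx58 and Trim30a in RO-3066 and Irf1 in DMSO. Ifi47 stood at 38.2 against 37.9 CPM and 51.4 against 58.7. Ly6e, the only other Ly6 gene with enough counts to compare, stood at 283 against 278 CPM and 414 against 354. Of 3 Ifitm genes compared, Ifitm3 was 1.51-fold and 1.501-fold higher, and Ifitm1 1.39-fold in DMSO and 2.38-fold in RO-3066. MHC class I genes were nearer to 1: of 18 none passed the fold, with medians of 0.22 and 0.13.

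Genes of cytokine and NF-kB signalling also held high members. Of 15 genes of JAK-STAT feedback and cytokine signalling compared, 3 were higher in both libraries and none lower, with medians of 0.35 and 0.37. Of all genes compared 1.89% were higher and 0.63% lower in both, with medians of -0.00 and 0.01. Socs2, a STAT5-induced inhibitor of cytokine receptors, stood at 156 against 63.3 CPM and 100.3 against 47.6, Cish, of the same family, was 1.63-fold and 1.65-fold higher, and Il2rg, the common gamma chain gene, 1.99-fold and 2.12-fold. Of 11 NF-kB factors and targets compared 3 were higher and none lower: Tnip3, Rel (1.58-fold and 1.65-fold) and Ier3 (1.55-fold and 1.61-fold). At matched UMI bins the log2 ratios were 1.63 and 1.32 for Tnip3, 0.39 and 0.24 for Rel and 0.32 and 0.50 for Ier3. Rel and Ier3 were then below 1.5-fold in both libraries. Nfkb1, which encodes p105, stood at 64.3 against 55.1 CPM and 69.1 against 66.8. Tnfrsf1a, the TNF receptor gene, was the 1 of 2 genes compared of the TNF and lymphotoxin family past the fold. Lst1, which lies 5999 bases from Ltb, was 2.82-fold and 2.004-fold higher, and its log2 ratios of 1.46 and 0.99 were 1.51 and 0.99 when Ltb was left out of the choice.

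Megakaryocyte and platelet genes were lower in part, none of 17 higher and 5 lower in both libraries, with medians of 0.03 and -0.27. Of all genes compared 1.89% were higher and 0.63% lower in both. Itga2b, which encodes the platelet integrin CD41, stood at 27.5 against 72.8 CPM in DMSO and 51.1 against 157 in RO-3066, ratios of 0.378 (0.335 to 0.425) and 0.325 (0.292 to 0.361). Plek, Rap1b and Lat, which act in platelet signalling, and Pf4, on which the cells were chosen, were the others. Pf4 stood at 301 against 714 CPM and 224 against 731. Gata1, the factor gene of megakaryocyte and erythroid cells, had 12 UMIs in each library's high cells, 1.14 against 9.71 CPM and 1.72 against 21.2. Vwf stood at 12.3 against 9.29 CPM and 19.2 against 20.002, Gng11 at 118 against 84.1 and 159 against 125, and Cd63 at 469.6 against 429 and 522 against 493. At matched UMI bins the log2 ratios were -1.06 and -0.76 for Itga2b and -1.05 and -0.56 for Plek. They were -0.73 and -0.49 for Lat and -0.39 and -0.24 for Rap1b. Rap1b was then short of 1.5-fold in both libraries, and Plek and Lat in RO-3066. Vwf, below the 20 CPM required in DMSO, was at 0.66 and 0.81 at matched bins, past 1.5-fold higher.

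Hbb-bt, an adult beta globin gene, was the erythroid gene past 1.5-fold in both libraries, of 7 with enough counts to compare. It stood at 958 against 244 CPM in DMSO and 1650.3 against 546 in RO-3066, 3.93-fold (3.84 to 4.02) and 3.02-fold (2.96 to 3.08). Cells with Pf4 above the limit had 29.0 and 174 CPM. On cells thinned to 10000 UMIs, 65.1% of DMSO and 76.4% of RO-3066 high cells had an Hbb-bt UMI, against 42.6% and 64.5% of other cells and 16.5% and 46.2% of cells high in Pf4 (unthinned 71.5% and 80.4%, 57.8% and 81.0%, and 39.6% and 86.0%). Hbb-bs, its near-identical neighbour with which reads can be confused, stood at 2.67 against 3.78 CPM and 3.29 against 4.25. The erythroid defining genes Alas2 and Slc4a1 were at 0 in the high cells of both libraries, Hba-a1 at 0 and 0.14 CPM, and Klf1 at 0.29 and 1.29. Of 26 erythroid genes 15 were seen in high cells of both libraries and 8 at 0 in both, and the list's summed level of 1758 CPM in DMSO and 2665 in RO-3066, against 938 and 1489, was mainly Hbb-bt and the carbonic anhydrase gene Car2, at 547 and 702 CPM in high cells. Gfi1b, a transcription factor gene of erythroid and megakaryocyte cells, stood at 20.4 against 30.9 CPM and 33.8 against 55.8.

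Few markers of mature cells had enough counts to compare. Mpo, the granule gene of neutrophil precursors, had 0 UMIs in high cells of both libraries, where the floor of 3 counts is 0.286 and 0.429 CPM, and 0.90 and 0.21 CPM in other cells. None of 32 T, B and NK cell genes had enough counts to compare, and their summed level was 32.8 CPM in high and 27.9 in other DMSO cells, 41.6 and 39.6 in RO-3066, with 19 of 32 at 0 in high cells of both. Of 33 neutrophil and monocyte genes 4 were compared and 8 were at 0, with summed levels of 382 against 335 and 387 against 390 CPM. Of 25 endothelial and stromal genes 3 were compared and 9 were at 0. Vim, which encodes the filament protein vimentin (1.55-fold and 2.11-fold), and Egfl7 (1.57-fold and 1.55-fold) were higher in both, and the list summed to 647 against 425 and 501 against 284 CPM. Of 17 dendritic cell genes 3 were compared, none past the fold in both libraries, and 6 were at 0, with sums of 695 against 562 and 729.9 against 587 CPM. Of 18 mast, basophil and eosinophil genes 3 were compared, none past the fold in both, and 11 were at 0, with sums of 192 against 247 and 299.8 against 342 CPM. The part of such cells in the results was not tested.

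High cells were called G1 more often than other cells, although few cells were called so at all. The call goes to cells that score low for both DNA synthesis (S) and division (G2M) genes, so it does not tell G1 from quiescence. On thinned cells 15.9% of DMSO high cells were called G1 (12.9 to 19.2) against 1.75% of other cells (1.37 to 2.21), and 7.25% (4.70 to 10.6) against 0.877% (0.557 to 1.31) in RO-3066. S calls were 42.1% and 45.3% in DMSO and 26.0% and 38.0% in RO-3066, and G2M calls 42.1% and 52.9%, and 66.8% and 61.2%. High cells made up 89 of 160 G1 cells in DMSO and 24 of 47 in RO-3066. The cells called G1 were also shallow, with median UMIs of 12943 and 15669 among high cells. Mki67, a gene of cycling cells, stood at 275 against 343 CPM and 320 against 336, with log2 ratios of 0.26 and -0.38 at matched UMI bins, and most high cells were called S or G2M.

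Of 13 CDK inhibitors and quiescence genes compared, 4 were higher and none lower, with medians of 0.11 and 0.46. The shares over all genes compared, to set beside the counts here, were 1.89% higher and 0.63% lower in both libraries. Cdkn1c, which encodes the stem cell CDK inhibitor p57, stood at 23.5 against 11.8 CPM and 26.3 against 14.4, and Klf6, Txnip and Ccnd1 were the others. Ccnd1 encodes cyclin D1, which promotes entry into the cycle, and was 2.08-fold and 1.54-fold higher. Of 44 S phase genes 1 was lower in both, E2f8, a repressor of cell cycle genes (0.621 and 0.634). No G2 and M gene of 56 passed the fold in both, and their median was -0.22 in DMSO, 0.25 there at matched UMI bins, and 0.02 in RO-3066. Ribosome biogenesis genes were lower in small steps: 38 of 42 were below 1 in both libraries, none past the fold, with medians of -0.24 and -0.27. Of all 5553 genes compared 2093 were below 1 in both. Of 10 immediate early genes compared 3 were higher, Jun, Klf6 and Ier3, and of 8 p53 targets 1, Sesn1.

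**Figure D3:**
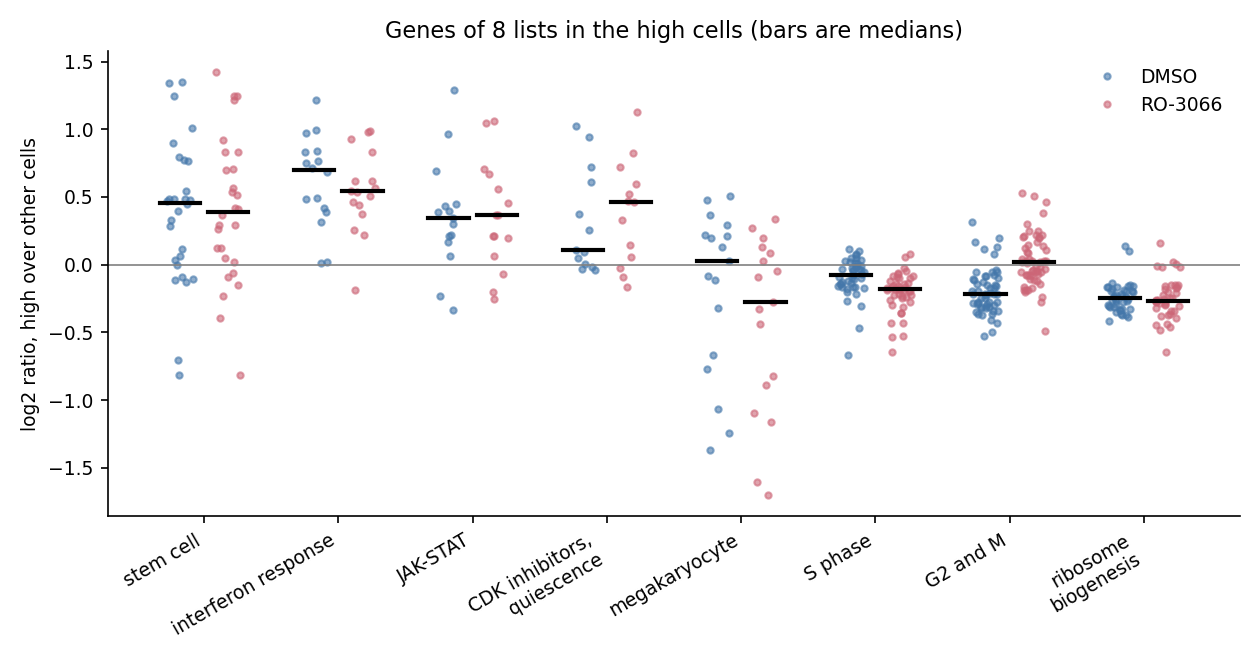
Log2 ratio of CPM plus 1, high over other kept cells (y axis), for each gene compared of 8 lists (x axis) in both libraries. Points are genes and black bars medians; interferon response genes sit at medians of 0.70 and 0.54, ribosome biogenesis genes at -0.24 and -0.27, and Pf4 in the megakaryocyte list was part of the choice of cells.

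The ratios of Hlf, Mecom, Socs2, Lgals1, Hbb-bt, Cd48, Cdk6, Itga2b and Runx3 lay on the same side of 1 within S and within G2M cells as over all phases, in both libraries. That of Cdkn1a in DMSO did not, at 0.827 within S cells and 1.16 within G2M cells. Hlf was 2.34-fold and 2.43-fold higher within S cells and 2.59-fold and 2.61-fold within G2M cells, and 1.32-fold (1.11 to 1.58) and 3.18-fold (2.46 to 4.13) within the few G1 cells. Cd48 ratios were 0.262 and 0.4003 within S and 0.192 and 0.231 within G2M. Within S cells 64 genes were higher and 29 lower in both libraries and within G2M cells 107 and 35. Hlf ratios were between 1.39 and 2.91 in each of 5 UMI bins of each library and Cdk6 ratios between 0.397 and 0.739, on the same side of 1 in all 10.

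With each further UMI of the 3 genes, Hlf, Mecom, Socs2 and Lgals1 stood higher and Cd48, Cdk6 and Runx3 lower in both libraries, on both sides of the limit. On cells thinned to 10000 UMIs and split at 0, 1, 2, 3 and 4 or more UMIs of the 3 genes, Hlf stood at 78.3, 120, 167, 203 and 253 CPM in DMSO and at 106, 172, 214, 282 and 338 in RO-3066. Cd48 stood at 75.9, 53.1, 28.4, 18.0 and 2.92 CPM in DMSO and at 23.9, 16.01, 10.5, 3.33 and 2.53 in RO-3066. Itga2b, Pf4, Fgf3 and Hbb-bt ran in one direction in DMSO but not through the upper steps in RO-3066, where Hbb-bt stood at 1854 CPM at 3 UMIs and 1733 at 4 or more, and Pf4 at 265, 186 and 244 from 2 UMIs on. Median UMIs of these cells fell in the same order, from 24071 to 16036 and from 35076 to 16355. Mki67 stayed between 244 and 311 CPM in DMSO and between 309 and 376 in RO-3066. High cells just inside the limit, at 150 to 200 CPM, were 175 and 123 in number with Hlf at 166 and 228 CPM. Other cells just outside, at 100 to 150 CPM, were 343 and 251 with Hlf at 130 and 187, so the limit cuts a continuous range.

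**Figure D4:**
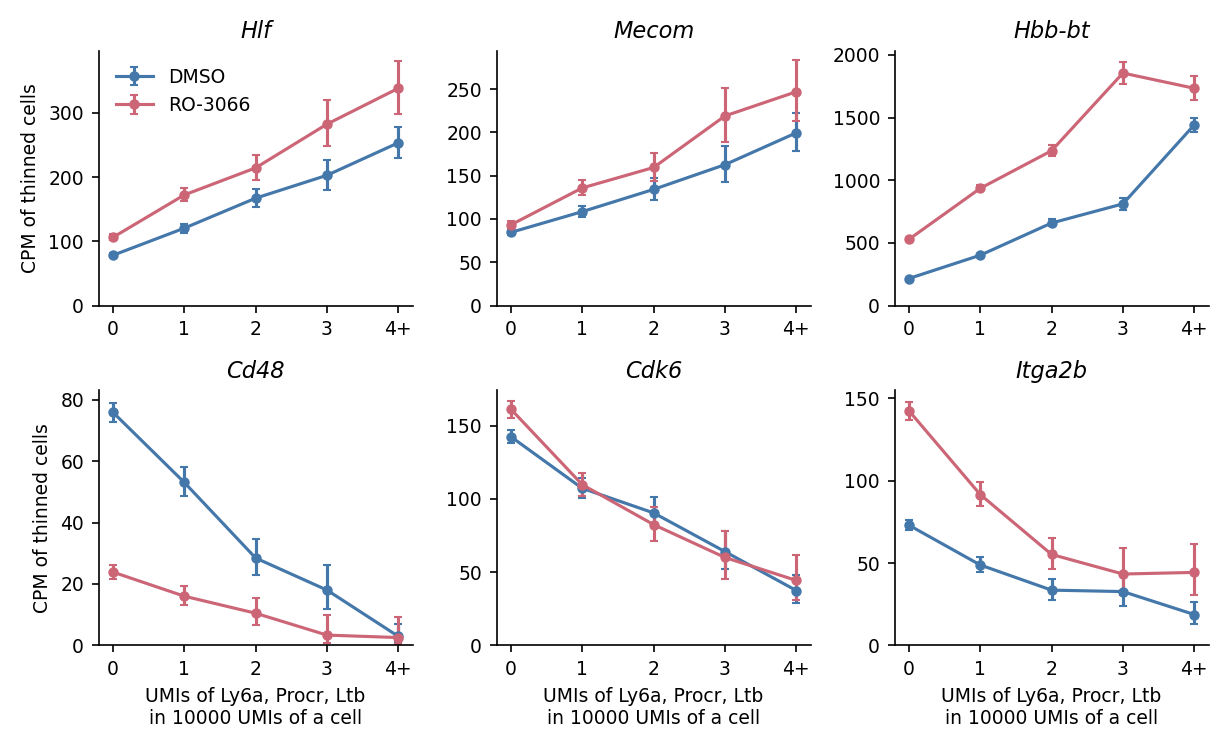
CPM of 6 genes (y axes) in kept cells thinned to 10000 UMIs, split by their UMIs of Ly6a, Procr and Ltb (x axes, 4+ for 4 or more). Points are the 2 libraries and bars exact 95% intervals; Hlf runs from 78.3 to 253 CPM in DMSO and Cd48 from 75.9 to 2.92.

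High cells led by Ly6a and by Ltb differed among themselves in phase calls. Ly6a led 376 DMSO and 163 RO-3066 high cells, Ltb 90 and 101, Procr 31 and 20, and 64 and 47 were ties. G1 calls were 31.1% of Ltb-led and 10.6% of Ly6a-led cells in DMSO and 13.9% and 1.84% in RO-3066. The median log2 ratio of G2 and M genes over other cells was -1.07 in Ltb-led and -0.08 in Ly6a-led DMSO cells, and -0.19 and 0.10 in RO-3066. Hlf was alike, at 216 and 196 CPM in DMSO and 263 and 245 in RO-3066. Mecom stood at 127 CPM in Ltb-led and 180 in Ly6a-led DMSO cells, and at 205 and 194 in RO-3066. In the same order Socs2 stood at 122 and 168 CPM in DMSO and 84.1 and 97.5 in RO-3066. Cd34 stood at 122 CPM in Ltb-led and 71.4 in Ly6a-led DMSO cells, and at 78.3 and 66.2 in RO-3066. Median UMIs were 15572 and 18258 in DMSO and 18814 and 19724 in RO-3066.

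Between the treatments, high cells of the RO-3066 library had more p53 target RNA than those of the DMSO library. Of 5991 genes that had 20 CPM or more in high cells of at least 1 library, 192 were at least 1.5-fold higher in RO-3066 (3.2%) and 137 lower (2.29%). In other kept cells 188 and 100 of the same genes passed, 104 and 67 of them the same genes in the same direction. With 1 library a treatment these folds compare 2 libraries, with intervals of counting error only, and the difference between high and other cells was not tested.

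Gdf15, a stress cytokine gene and p53 target, stood at 3.05 CPM in DMSO and 51.2 in RO-3066 high cells, 16.8-fold (11.7 to 24.9) beside 7.55-fold (6.53 to 8.77) in other cells. Cdkn1a, which encodes the CDK inhibitor p21, stood at 19.0 and 77.9 CPM, 4.09-fold (3.47 to 4.83) beside 2.91-fold (2.76 to 3.07), and Ccng1, a p53 target, was 2.93-fold beside 1.82-fold higher. Of 16 p53 targets compared 9 were higher and none lower, with a median log2 ratio of 0.83 in high and 0.56 in other cells. Apoe, the apolipoprotein E gene, stood at 87.2 and 273 CPM in high cells, 3.13-fold beside 4.33-fold in others. Cox6b2, Zbtb20, Malat1 and Lst1 were the other 4 of the 8 highest among genes with at least 50 CPM in high cells of at least 1 library, unnamed gene models left out, between 2.15-fold and 2.62-fold.

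Bnip3, a mitophagy receptor gene induced by hypoxia, was the lowest of the genes at this minimum of 50 CPM, at 94.4 CPM in DMSO and 30.2 in RO-3066 high cells, a ratio of 0.320 beside 0.303 in others. Ccne2, the gene of cyclin E2, stood at 60.2 and 21.2 CPM, a ratio of 0.352 beside 0.481. Mif, Gchfr, Grhpr, Mt1 and the glycolysis genes Pfkl and Pgam1 completed the 8 lowest. Of 21 glycolysis genes 10 were lower and none higher, with medians of -0.58 in high and -0.57 in other cells. Of 18 megakaryocyte and platelet genes 4 were higher and none lower, with a median of 0.40 in high cells and 0.60 in others, and of 30 stem cell genes 7 were higher and 1 lower, with medians of 0.31 and 0.23. Hlf itself was at 207 and 260 CPM, and Cd48 at 15.05 and 6.58.

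**Figure D5:**
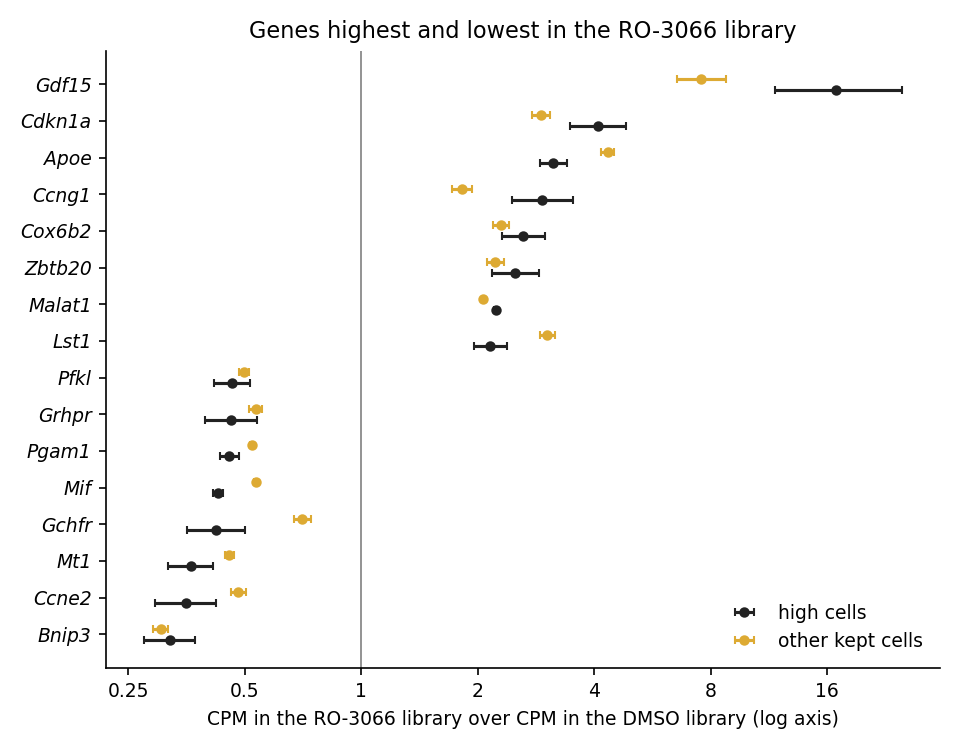
CPM in the RO-3066 library over CPM in the DMSO library (x axis, log scale) for the 8 highest and 8 lowest genes of those with at least 50 CPM in high cells, beside other kept cells. Points are the 2 sets of cells and bars exact conditional Poisson 95% intervals; Gdf15 is at 16.8 in high and 7.55 in other cells, Bnip3 at 0.320 and 0.303.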

How the data were processed

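The authors deposited UMI counts per gene and barcode, in a raw matrix per library. Cell Ranger is named as version 5.0.1, with mm10, by the submitters' processing notes and as 7.1.0 by the headers; which made the counts and whether intron reads were counted is not given in the sources used here. Of 32285 gene identifiers, 32235 were found in GENCODE vM21, from which gene coordinates come. The high cells, the gene lists and the alternatives were chosen with earlier results of these data known.

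UMIs were summed over cells and given as CPM, and log2 ratios are of CPM plus 1. With 1 library a treatment, and cells chosen on measured counts, no test was run. Folds have exact conditional Poisson intervals and shares exact Clopper-Pearson intervals at 95%, covering counting error only. Cells were thinned by drawing 10000 UMIs, phases were called with scanpy 1.11.5 in each library, and doublets were scored by the share of artificial sums of 2 cells among 50 neighbours, called at 0.8% per 1000 barcodes. Named genes are the 12 highest and 12 lowest of the contrast, the 8 highest and 8 lowest of RO-3066 over DMSO with at least 50 CPM, 2 genes of each of 33 lists, and 31 set genes, without unnamed gene models; list members past the fold and defining genes were also named after their values were seen. The scripts were tested on simulated data. Some genes of these lists are not reported here.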

Additional observations from a re-analysis of the deposited data

How the results depend on the processing

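None of the 65 named genes past 1.5-fold in both libraries turned direction under any alternative run, while 29 of the other 60 did under at least 1, and all 105 higher and 35 lower genes kept theirs under every alternative except 1 of the 105 within S cells. The shares of high cells among kept cells in DMSO and RO-3066 were 19.6% and 19.7% at a limit of 100 CPM, 8.38% and 7.04% at 200 and 3.97% and 2.91% at 300. They were 14.2% and 13.8% on thinned cells, 5.59% and 5.97% from 20000 UMIs, 9.39% and 9.01% with no limit on Pf4 and 14.6% and 13% with Pf4 below 0.1%. Cells of 15000 to 40000 UMIs gave 9.84% in DMSO and 12.1% in RO-3066, the reverse of their order at the main setting, 12.2% and 11.2%. Choice on Ly6a and Procr gave 8.51% and 6.06%, on Ly6a and Ltb 10.4% and 8.84%, on Procr and Ltb 3.39% and 3.99%, and a need for 2 of the 3 genes, added after seeing the data, 9.55% and 9.24%.

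Counts of genes higher and lower in high cells, 105 and 35, were 61 and 21 at a limit of 100 CPM, 238 and 52 at 300, 68 and 20 on thinned cells, 40 and 16 for 15000 to 40000 UMIs, 62 and 26 from 20000 UMIs and 41 and 11 at matched UMI bins. They were 235 and 155 with no limit on Pf4, 69 and 15 with Pf4 below 0.1%, 193 and 60 with Ly6a left out of the choice and 64 and 29 within S cells. A minimum of 5 CPM gave 324 and 67, of 50 CPM 40 and 17, none 561 and 97, a smaller fold 363 and 130 and a fold of 2 16 and 8. Counts of genes higher and lower in RO-3066 high cells, 192 and 137, were 431 and 333 at 300 CPM, 381 and 265 without Ly6a, 318 and 263 within S cells, 531 and 280 at 5 CPM, 66 and 82 at 50 CPM, 953 and 501 with no minimum, 817 and 797 at the smaller fold and 29 and 22 at 2-fold. The lower count was 223 for 15000 to 40000 UMIs and 314 from 20000 UMIs, and the share higher among genes past the fold was then 50.9% and 45.4%, against 58.4%. Smaller sets of cells leave fewer UMIs behind each ratio, and the cause of these shifts was not tested further.

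The stem cell list's DMSO median was 0.58 at 300 CPM and 0.56 without Ly6a, and G1 shares of high cells were 22.4% and 11.6% at 300 CPM. Of 1384 list medians, 10 reversed. The S phase median in DMSO was 0.0447 with no limit on Pf4. The G2 and M median in DMSO was 0.12 from 20000 UMIs, 0.25 at matched UMI bins and 0.0276 within G2M cells. The glycolysis median in RO-3066 was 0.0166 at matched bins. Histone medians, over near-identical gene copies, were 0.13 at matched bins and 0.0167 within G2M cells in DMSO, and -0.17 for 15000 to 40000 UMIs, -0.32 from 20000 UMIs and -0.49 at matched bins in RO-3066. Matched UMI bins do not touch the high cells, so they were not run between treatments. No paired analysis was possible because each treatment has 1 library.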
